A study of Mus musculus with 12 samples.

Results

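The transcripts that let a mouse oocyte exchange lactate for pyruvate and burn pyruvate were followed through meiotic maturation with and without the RNA demethylase ALKBH5. The set held 10 of the 56691 genes in the deposited count table: *Ldha* and *Ldhb* (lactate dehydrogenase), *Mpc1* and *Mpc2* (mitochondrial pyruvate carrier), *Pdha1*, *Pdhb* and *Dlat* (pyruvate dehydrogenase complex) and *Pdk1*, *Pdk2* and *Pdk3* (pyruvate dehydrogenase kinases). They were chosen by function, each symbol matched 1 gene identifier, and all 10 had counts in at least 11 of the 12 libraries.

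RNA-seq libraries had been prepared from pools of denuded oocytes, in 6 groups of 2 libraries, WT and *Alkbh5*-/- (called KO) at each of 3 stages. Oocytes were taken while arrested with an intact germinal vesicle (GV), at the breakdown of that nucleus (GVBD) and at metaphase II (MII). All mice were on a C57BL/6 background, and the knockout was a total one in which exon 1 of *Alkbh5* had been ablated with CRISPR-Cas9, so the deletion was carried by the somatic cells too. By the study's methods, juvenile females of both genotypes were primed with PMSG (a gonadotropin), the oocytes were held with milrinone, released into M16 medium and sampled at the start of culture, after a few hours and after overnight culture. By the study's account most KO oocytes stayed at GV and a polar body was seldom extruded, and the text does not say whether KO oocytes were chosen by stage, so genotype and meiotic stage cannot be told apart in the KO GVBD and KO MII libraries. The number of founder lines was not given, and the statements of the number of oocytes per pool differed.

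Fully grown oocytes are poor at glycolysis and live largely on pyruvate supplied by the surrounding cumulus cells. Lactate dehydrogenase interconverts lactate and pyruvate, the carrier takes pyruvate into mitochondria, and the pyruvate dehydrogenase complex turns it into acetyl-CoA for the tricarboxylic acid (TCA) cycle. Pyruvate dehydrogenase kinases phosphorylate and shut off the E1 component of that complex, and phosphatases switch it on again. An oocyte in meiosis makes no new mRNA, so a transcript level measured on polyadenylated RNA then moves with decay and with the length of the poly(A) tail.

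Because tail length is set from the 3′ end of an mRNA, the last bases of the transcripts on which the comparisons turn are shown. They were read from the GENCODE M21 transcripts (GRCm38), and each window of 30 bases is printed 5′ to 3′ with T for U and with the polyadenylation signal, AATAAA or its variant ATTAAA, in capitals.
*Ldhb* (chr6:142490255-142490284, minus strand): agctcctgatcaAATAAAgttagcaattgc
*Ldha* (chr7:46855596-46855625, plus strand): agtgtcatgccaAATAAAaccttgaacagt
*Mpc2* (chr1:165481182-165481211, plus strand): ccatttgtccatAATAAAccgtacttggtc
*Pdha1* (chrX:160122220-160122249, minus strand): aaaaggaaacgaATTAAActtgtttgattc
*Pdhb* (chr14:8165999-8166028, minus strand): gttttgataaggAATAAAggggattcccac
*Dlat* (chr9:50634646-50634675, minus strand): aattgtttaaaaATTAAAcatgttttcagt

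The signal began 24 bases before the annotated end in *Ldhb*, 21 in *Mpc2* and *Pdhb* and 31 in *Dlat*. One of the 2 signals was found within the last 50 bases, on the transcript strand, in 9 of the 10 genes and in 71.4% of 21832 protein-coding genes. *Pdk2* was the exception. The letters TTTTAT or TTTTAAT, the core of the cytoplasmic polyadenylation element that binds CPEB, were found within the last 150 bases of *Ldha*, *Pdha1* and *Pdk3*, against 21.3% of all these genes. *Ldhb* had neither in that window. These matches describe letters only and were not related to any measured change.

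Each library held 28557742 to 40247810 counts, of which 221927 to 838409 fell on ERCC spike-in RNAs, and 19837 to 24436 genes had at least 1 count. *Alkbh5* received 5355 to 10181 counts in WT and 54 to 143 in KO libraries, so the genotype labels held in all 12. The 12 oocyte markers (*Zp3*, *Gdf9*, *Bmp15* and others) had counts in every library. Of 14 cumulus and granulosa cell markers, *Amh*, *Amhr2* and *Foxl2* never exceeded 5 counts. *Inha*, *Fst*, *Has2*, *Ptgs2* and *Tnfaip6* had 0 counts in some libraries. The rest had counts in every library: *Cyp19a1* (577 to 2225), *Nr5a2* (292 to 480), *Kitl* (73 to 263), *Gja1* (15 to 248), *Fshr* (17 to 221) and *Inhba* (6 to 130). The sum of the 14 ran from 45.4 to 59.9 CPM in WT and from 51.2 to 88.0 in KO. CPM are counts scaled to the endogenous total of the library. Levels below are counts per 1000 ERCC counts. They depend on how many oocytes a tube held as well as on the RNA in each, and in pooled samples fewer cells and less RNA per cell cannot be told apart. A figure legend of the study calls the 2 libraries of a group biological replicates, and the labels do not say whether they came from separate animals. The p-values measure only the spread between these libraries, which may be technical.

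*Ldhb* stood far above the other members. Per kilobase of transcript its mean level over the 12 libraries was 456, 216 times that of *Mpc2* (2.11), the next in order, and 554 times that of *Ldha* (0.824). *Mpc2* was followed closely by *Pdhb* (2.07), then by *Mpc1* (1.41), *Dlat* (0.938), *Pdha1* (0.834), *Ldha* (0.824), *Pdk3* (0.600), *Pdk1* (0.112) and *Pdk2* (0.0609). Over the libraries these levels ran from 159 to 722 for *Ldhb*, from 0.389 to 3.51 for *Mpc2* and from 1.3 to 3.02 for *Pdhb*, so that all neighbours in the order below *Ldhb* overlapped except *Pdk3* and *Pdk1*, which ran from 0.250 to 1.03 and from 0.0504 to 0.182. *Ldhb* alone took 0.261% to 1.33% of the endogenous counts of a library and ranked between 3rd and 46th among all genes. It therefore supplied nearly all mRNA of the *Ldha* and *Ldhb* pair: *Ldha* made up 0.0395% to 1.5% of the counts of the pair. *Ldhc*, a lactate dehydrogenase gene outside the set, had 56 to 2425 counts per library. Its counts exceeded those of *Ldha* in every KO library, WT GV replicate 1 and WT GVBD replicate 2. In the other WT libraries *Ldhc* had fewer counts than *Ldha*. *Ldha* has processed copies elsewhere in the genome, and since only uniquely mapped reads were kept, its level per length is uncertain.

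**Figure D1:**
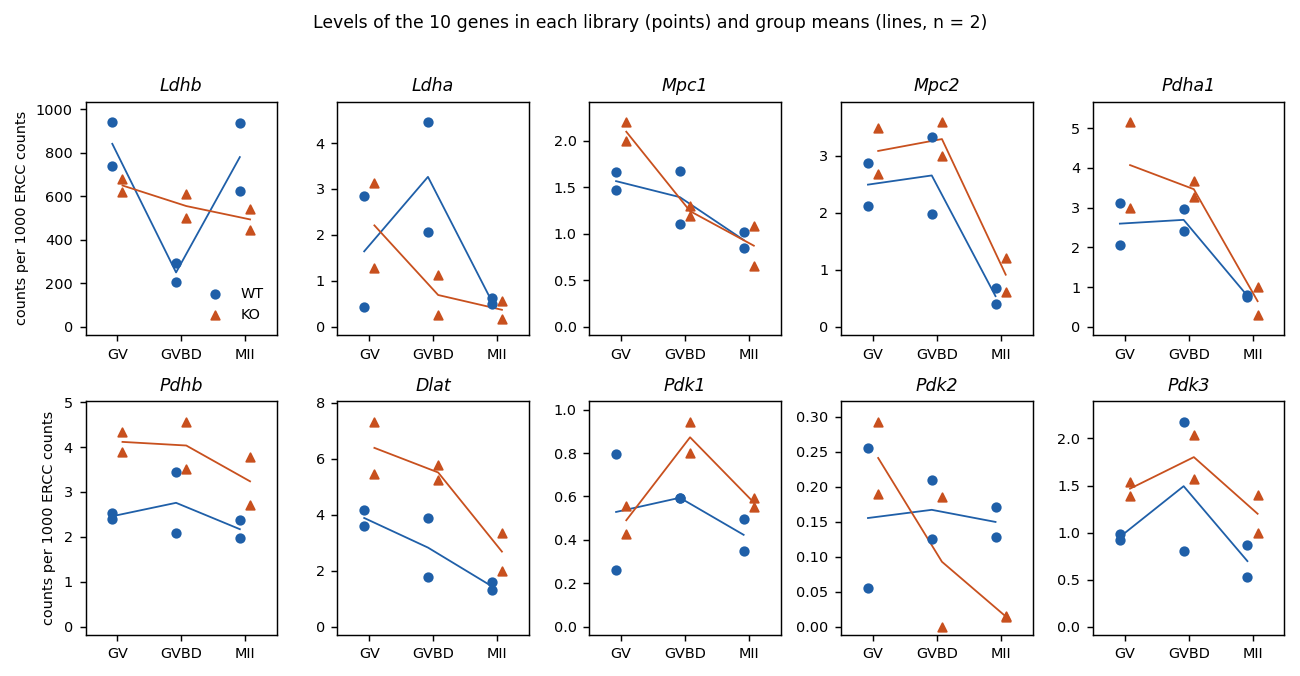
Levels of the 10 genes, in counts per 1000 ERCC counts, at each stage in WT (circles) and KO (triangles). Points are libraries and lines join the means of 2 libraries. *Ldhb* in WT GVBD, at 293 and 207, lies below every other library, and *Mpc2* and *Pdha1* are lowest at MII in both genotypes.

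The genotypes were compared first, to ask whether loss of ALKBH5 altered these transcripts at any stage. A gene was called when its adjusted p (edgeR quasi-likelihood test, Benjamini-Hochberg over all tested genes) was under 0.05 and its log2 fold change was at least 1 in either direction. None of the 10 was called at GV, where 0.0977% of 19452 genes were, and 2 had an unadjusted p under 0.05. None was called at GVBD against 2.54% of 19462 genes (2 at an unadjusted p), none at MII against 0.803% of 17566 genes (1 at an unadjusted p), and none over all stages together against 1.26% of 22004 genes (2 at an unadjusted p). DESeq2 called none at GV, at MII and over all stages and *Ldha* at GVBD. The median log2 fold change of the 10 was 0.52 at GV, 0.34 at GVBD and 0.17 at MII, beside 0.36, 0.23 and 0.30 for all genes tested. Both KO libraries lay above both WT libraries for 4 members at GV, 5 at GVBD and 4 at MII, whereas 42.2%, 30.3% and 22.1% of all genes did so. The reverse held for *Ldhb* at GV, *Ldha* at GVBD and *Ldhb* and *Pdk2* at MII, against 9.69%, 17.9% and 10.3% of all genes. Per ERCC count, *Dlat* and *Pdhb*, 2 subunits of one complex, were the members whose KO libraries were the higher at each of the 3 stages. So were 6.73% of 16622 genes tested at all 3. *Pdha1*, of the same complex, was higher without overlap at GVBD only.

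**Figure D2:**
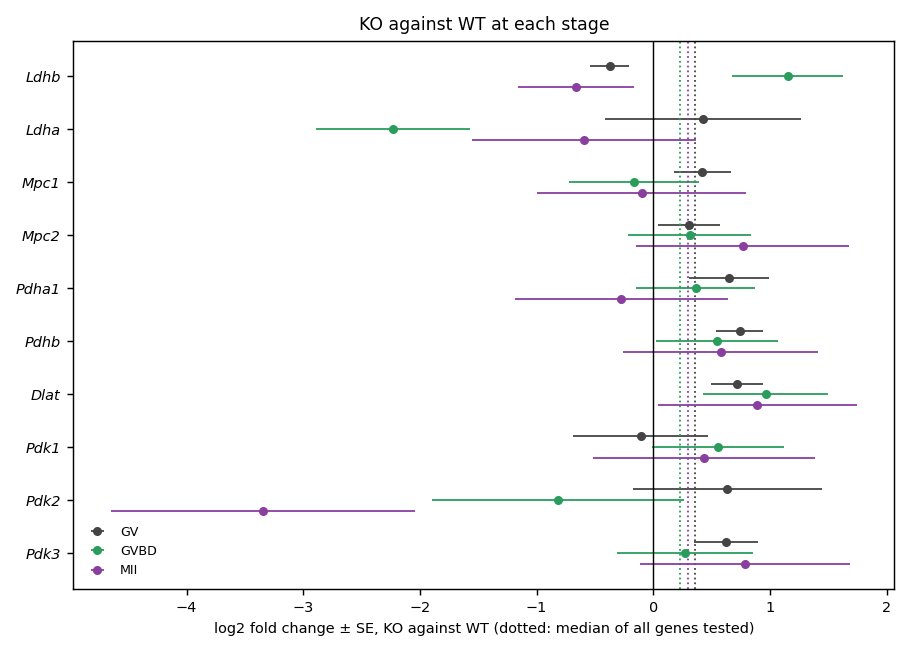
Log2 fold changes of KO against WT at GV, GVBD and MII, with bars of 1 SE from edgeR, for the 10 genes. Dotted lines mark the medians of all genes tested, 0.36, 0.23 and 0.30. *Ldhb* lies left of zero at GV and MII and right of it at GVBD, and *Dlat*, *Pdhb*, *Mpc2* and *Pdk3* lie right of zero at all stages.

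Next, the stages were compared within each genotype, to see which of these transcripts were lost as oocytes matured. From GV to MII in WT, 4 of 10 members fell (*Mpc2*, *Pdha1*, *Ldha* and *Dlat*) and none rose, beside 30.5% of 18816 genes called lower. In KO, edgeR called none, beside 3.28% of 18777 genes, although 4 members had an unadjusted p under 0.05 and DESeq2 called 4 (*Ldha*, *Mpc2*, *Pdha1* and *Pdk2*). The median of the 10 was −0.60 in WT and −1.26 in KO on the log2 scale, beside −1.06 and −1.17 for all genes, so a member near −1 moved with the bulk of the transcriptome. Both MII libraries lay below both GV libraries for 6 members in WT and 8 in KO, beside 58.0% and 61.4% of all genes, and for 3 and 4 members with TMM scaling, beside 38.7% and 37.3%. The genotype difference in this change, tested as an interaction, was not called for any of the 10, nor for any of 20807 genes (0.0%), of which DESeq2 called 154 and 1197 had an unadjusted p under 0.05. Among the members *Pdk2* alone had an unadjusted p under 0.05, and DESeq2 called none of them.

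**Figure D3:**
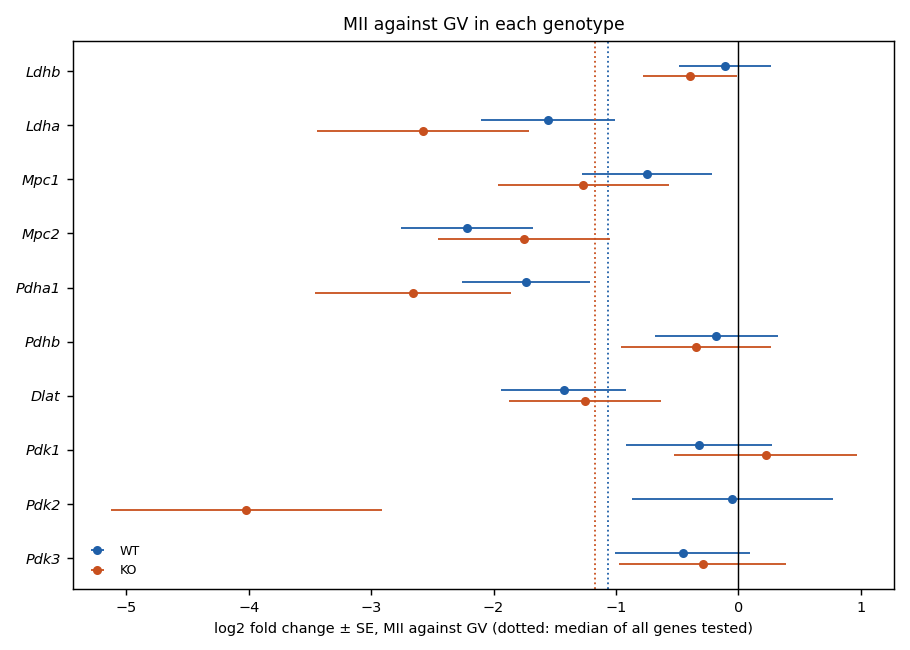
Log2 fold changes of MII against GV in WT and in KO with bars of 1 SE from edgeR. Dotted lines mark the medians of all genes tested, −1.06 in WT and −1.17 in KO. *Mpc2*, *Pdha1*, *Ldha* and *Dlat* lie left of both lines in both genotypes, whereas *Ldhb*, *Pdhb*, *Pdk1* and *Pdk3* lie right of them.

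From GV to GVBD no member was called in WT, beside 0.0511% of 19566 genes, or in KO, beside 0.22% of 19064 genes. In each genotype 1 member had an unadjusted p under 0.05 (*Ldhb* in WT, *Ldha* in KO), and DESeq2 called *Ldhb* in WT and none in KO. From GVBD to MII, a comparison added after the values had been seen, *Ldhb* rose and *Ldha*, *Mpc2* and *Pdha1* fell in WT, beside 0.682% of 19211 genes called higher and 27.1% called lower (27.8% in either direction). In KO none of 9 tested members was called, beside 7.2% of 17966 genes, with 2 at an unadjusted p under 0.05 and 2 called by DESeq2 (*Mpc2* and *Pdha1*). *Pdk2* was left out there by the filter on low counts.

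*Ldhb* (ENSMUSG00000030246, chromosome 6, 142490249 to 142507957, minus strand) encodes the heart-type subunit of lactate dehydrogenase. In WT its level was 942 and 742 (GV), 293 and 207 (GVBD), and 936 and 625 (MII). The KO libraries stood at 678 and 622 (GV), 501 and 610 (GVBD), and 544 and 444 (MII). The WT GVBD libraries thus lay below all others, the WT MII and WT GV libraries overlapped, and the KO libraries lay below the WT libraries at GV and MII and above them at GVBD. The WT means were 842 ± 142 (SD, n = 2), 250 ± 60.6 and 781 ± 220, and the KO means 650 ± 39.9, 555 ± 77.5 and 494 ± 70.8.

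By edgeR, the WT change from GV to GVBD was −1.75 ± 0.33 (log2 fold change ± SE, adjusted p = 0.163). It was called by DESeq2 (adjusted p = 0.000269). The rise from GVBD to MII in WT was 1.64 ± 0.54 (adjusted p = 0.0129), and it was larger with TMM scaling (2.59). In KO these changes were −0.23 ± 0.27 (adjusted p = 0.876) and −0.17 ± 0.50 (adjusted p = 0.938). KO against WT was −0.37 ± 0.17 at GV, 1.15 ± 0.48 at GVBD and −0.66 ± 0.50 at MII, with adjusted p of 0.312, 0.242 and 1. The genotype difference in the change from GV to GVBD was 1.52 ± 0.41 (unadjusted p = 0.0042, adjusted p = 0.391, with 0.00936% of 21371 genes called), and DESeq2 called it (adjusted p = 0.0423). That in the change from GVBD to MII was −1.81 ± 0.66 (unadjusted p = 0.015, adjusted p = 0.63, with 0.0626% of 20765 genes called). The rise from GVBD to MII in WT was not called without WT GVBD replicate 1 (1.91), WT GVBD replicate 2 (1.41) or WT MII replicate 1 (1.32). From GV to MII the change of *Ldhb* on the ERCC scale was −0.11 ± 0.37 in WT and −0.40 ± 0.38 in KO, 0.95 and 0.78 above the medians of all genes. Scaled by TMM, which brought these medians to −0.22 and −0.14, the changes were 0.75 and 0.78.

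Of 13272 genes whose counts averaged 50 or more, those without a symbol or with a Gm, Rik or accession-like name were passed over. Among the rest, genes most like *Ldhb* in course were sought over the 12 libraries by Pearson correlation of log2 TMM-scaled counts. They were *Cdk2ap2* (r = 0.987), whose product binds the kinase CDK2, *Cops9* (r = 0.984), a subunit of the COP9 signalosome, and *Snrnp27* (r = 0.981), a protein of the spliceosome. Counts of *Cdk2ap2* in WT were 2668 and 1853 (GV), 886 and 1034 (GVBD), and 4493 and 5490 (MII). The KO counts, by stage, were 1613 and 2068, 1228 and 2419, then 2508 and 2328. *Cops9* had 13611 and 13731 counts in WT GVBD, below the 18525 and 27503 of KO GVBD, and *Snrnp27* had 4394 and 4144 against 4510 and 8627. For all 3, as for *Ldhb*, both WT GVBD libraries lay below both KO GVBD libraries. The 3 genes were picked for their likeness to *Ldhb* in these libraries, so the shared low at WT GVBD is not independent of the choice. Likeness was computed in the same libraries at the same depth, so it is a description, with no p.

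**Figure D4:**
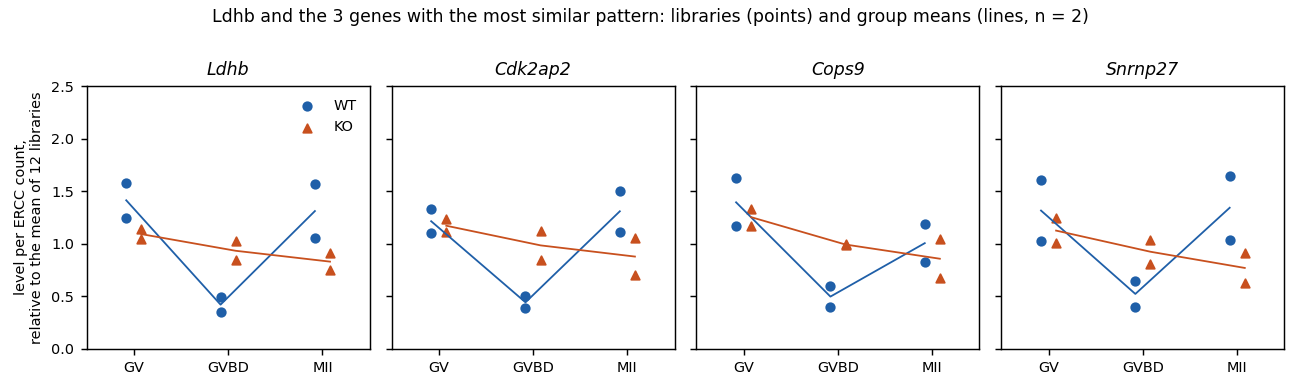
*Ldhb* and the 3 named genes most like it, as level per ERCC count relative to the mean of the 12 libraries, in WT (circles) and KO (triangles) at each stage. Points are libraries and lines join group means of 2. In all 4 panels both WT GVBD libraries lie below both KO GVBD libraries. The 3 genes were chosen by likeness over these libraries, so this is not independent of the choice.

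*Ldha* (ENSMUSG00000063229, chromosome 7, 46841475 to 46855627, plus strand) encodes the muscle-type subunit. Its level was 0.440 and 2.84 (WT GV), 4.46 and 2.07 (WT GVBD), and 0.624 and 0.493 (WT MII). KO levels by stage were 3.13 and 1.29 (GV), 0.260 and 1.12 (GVBD), and 0.565 and 0.176 (MII). The groups overlapped at GV and at MII, and at GVBD both KO libraries lay below both WT libraries. The fall from GV to MII in WT was −1.56 ± 0.55 (edgeR, adjusted p = 0.0171), which was not called by DESeq2 (adjusted p = 0.0647) or with TMM scaling (−0.67), and that from GVBD to MII −2.55 ± 0.72 (adjusted p = 0.0030). KO against WT at GVBD was −2.23 ± 0.66 (adjusted p = 0.0786), which DESeq2 called (adjusted p = 0.0222). Without WT GV replicate 2 the WT change from GV to MII turned to 0.34, and it was not called without WT GV replicate 1 (−2.35), WT MII replicate 1 (−1.73) or WT MII replicate 2 (−1.39). The fall from GVBD was not called without WT GVBD replicate 1 (−1.89) or WT MII replicate 2 (−2.39). By edgeR, KO against WT was called at GVBD without KO GVBD replicate 2 (−3.65, adjusted p = 0.0237) and at GV without WT GV replicate 2 (2.32, adjusted p = 0.0473). In KO the change from GV to MII was −2.58 ± 0.86 (adjusted p = 0.107).

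In counts and in CPM, *Ldha* was lowest in the libraries that were low for a muscle marker. The 4 libraries with the fewest *Ldha* counts (64 in KO GVBD replicate 1, 99 in KO MII replicate 2, 150 in WT GV replicate 1 and 228 in KO MII replicate 1) were the 4 in which *Tnnt2*, cardiac troponin T, had 0 to 4 counts. Per ERCC count the match was not complete, since WT MII replicate 2 (0.493) lay below KO MII replicate 1 (0.565). *Tnnt2* had 290 to 1007 counts in the other 8 libraries, where *Ldha* had 316 to 1343. *Tnnt2* was singled out after its values were seen, from 10 cardiac and skeletal muscle markers. In those 4 libraries 2 to 6 of the 10 were at 0, and none was at 0 in the other 8. The summed level of the 10 overlapped, at 108 to 987 CPM in the 4 and 176 to 1018 in the 8, and *Tnni3* alone had 2036 to 34485 counts. The 8 blood markers moved with *Ldha* as well. They summed to 2960 to 5553 CPM in 5 libraries, both of WT GVBD, both of KO GV and WT GV replicate 2, where *Ldha* had 408 to 1343 counts, and to 1.39 to 920 CPM in the other 7, where it had 64 to 413. The part of muscle and blood markers in the *Ldha* differences was not tested.

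**Figure D5:**
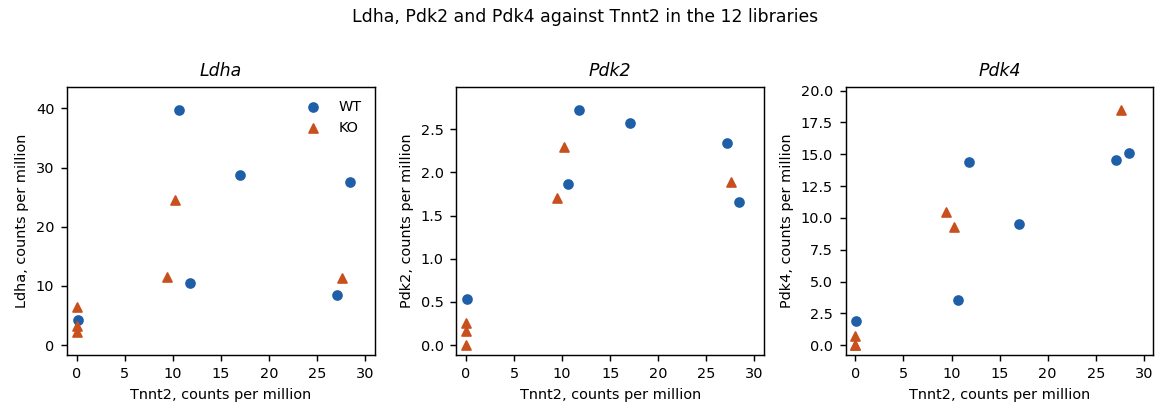
*Ldha*, *Pdk2* and *Pdk4* against *Tnnt2*, in CPM, for 12 libraries (WT circles, KO triangles). The 4 libraries at the left edge, where *Tnnt2* had 0 to 4 counts, are the 4 lowest for all 3 genes.

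Both subunits of the mitochondrial pyruvate carrier are needed for transport. *Mpc2* (ENSMUSG00000026568, chromosome 1, 165460637 to 165481214, plus strand) was at 2.11 and 2.88 (WT GV), 3.34 and 1.98 (WT GVBD), and 0.677 and 0.398 (WT MII). Levels for KO were 3.49 and 2.68, 3.59 and 3.00, and 1.21 and 0.615. All 4 MII libraries lay below all 8 others. The fall from GV to MII in WT was −2.22 ± 0.54 (edgeR, adjusted p = 0.00031), 1.15 beyond the median of all genes, and of the 4 falls between these stages it was the one also called with TMM scaling (−1.38). It was not called without WT GV replicate 1 (−2.42) or without WT GV replicate 2 (−1.98). From GVBD to MII it fell by 2.30 ± 0.72 in WT (adjusted p = 0.00803), which was not called without WT GVBD replicate 1 (−1.88) or WT MII replicate 2 (−1.97). In KO the change was −1.76 ± 0.70 from GV to MII (adjusted p = 0.161) and −1.85 ± 0.80 from GVBD to MII (adjusted p = 0.164). *Mpc1* (ENSMUSG00000023861, chromosome 17, 8282904 to 8297661, plus strand) was at 1.66 and 1.47 (WT GV), 1.68 and 1.11 (WT GVBD), and 1.02 and 0.850 (WT MII). The KO pairs were 2.20 and 2.00, 1.3 and 1.19, and 1.09 and 0.656. Its change from GV to MII by edgeR was −0.75 ± 0.53 in WT (adjusted p = 0.312) and −1.27 ± 0.70 in KO (adjusted p = 0.287). Per ERCC count the GV and MII libraries did not overlap in either genotype. With TMM scaling the changes were 0.15 and −0.16, and the GV and MII libraries overlapped in both genotypes. KO against WT at the 3 stages lay between 0.31 and 0.77 for *Mpc2* and between −0.16 and 0.42 for *Mpc1*, each less than 2 SE from zero.

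*Pdha1* (ENSMUSG00000031299, chromosome X, 160122209 to 160138413, minus strand) encodes the E1 alpha subunit that the kinases phosphorylate. It was at 2.07 and 3.12 (WT GV), 2.97 and 2.42 (WT GVBD), and 0.807 and 0.751 (WT MII). KO oocytes gave 5.15 and 2.99, 3.26 and 3.66, and 0.993 and 0.296. All 4 MII libraries again lay below the rest. It fell by 1.74 ± 0.53 on the log2 scale from GV to MII in WT (edgeR, adjusted p = 0.00476), and in KO the change was −2.66 ± 0.80 (adjusted p = 0.0816, called by DESeq2). The WT fall was −0.82 and not called with TMM scaling, nor was it called without WT GV replicate 1 (−2.0), WT GV replicate 2 (−1.41) or WT MII replicate 2 (−1.68). The fall from GVBD to MII in WT was −1.79 ± 0.70 (adjusted p = 0.0421) and was lost whichever of the 4 libraries was left out.

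*Pdhb* (ENSMUSG00000021748, chromosome 14, 8165996 to 8173025, minus strand) encodes the E1 beta subunit. In WT it was at 2.52 and 2.4 (GV), 3.44 and 2.08 (GVBD), and 2.37 and 1.97 (MII). Among KO libraries the values were 4.33 and 3.90, 4.56 and 3.51, and 3.77 and 2.70. The change from GV to MII was −0.18 ± 0.50 in WT and −0.35 ± 0.61 in KO (adjusted p = 0.847 and 0.761), 0.88 and 0.82 above the medians of all genes, with both MII libraries below both GV libraries in each genotype. With TMM scaling the direction turned, to 0.72 in WT and 0.80 in KO. Every KO library lay above both WT libraries of its stage. KO against WT was 0.74 ± 0.20 at GV (edgeR, unadjusted p = 0.0103, adjusted p = 0.183) and 0.62 ± 0.22 over all stages (adjusted p = 0.151, and 0.0416 by DESeq2, under the fold minimum), which is 0.33 above the median of all genes.

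*Dlat* (ENSMUSG00000000168, chromosome 9, 50634633 to 50659780, minus strand) encodes the E2 core that makes acetyl-CoA. In WT it was at 3.59 and 4.16 (GV), 3.86 and 1.78 (GVBD), and 1.59 and 1.3 (MII). The values for KO were 7.31 and 5.45, 5.78 and 5.23, and 3.36 and 2.00. As for *Pdhb*, no KO library overlapped the WT libraries of its stage in level per ERCC count. KO against WT over all stages was 0.86 ± 0.24, the largest difference of the 10 toward KO there, with an unadjusted p of 0.0033 and an adjusted p of 0.0955 by edgeR. The adjusted p was 0.0133 by DESeq2 and 0.0436 with TMM scaling, where the fold minimum was not reached (0.86 and 0.61). It lay 0.57 above the median of all genes and was 0.72 ± 0.22 at GV, 0.96 ± 0.54 at GVBD and 0.89 ± 0.85 at MII. *Dlat* fell from GV to MII in WT by 1.43 ± 0.51 on the log2 scale (adjusted p = 0.0193), a change of −0.53 with TMM scaling that was not called. The fall was also lost without WT GV replicate 1 (−1.53) or WT GV replicate 2 (−1.32). In KO it was −1.25 ± 0.62 (adjusted p = 0.243).

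By their means over the 12 libraries per kilobase the kinases were the least abundant members. At MII the mean of *Pdk3* lay above those of *Ldha* and *Pdha1* in both genotypes. In WT MII replicate 2, however, *Pdk3* per kilobase (0.250) lay below *Ldha* (0.279) and *Pdha1* (0.264). *Pdk3* (ENSMUSG00000035232, chromosome X, 93764607 to 93832201, minus strand) was at 0.919 and 0.988 (WT GV), 2.18 and 0.809 (WT GVBD), and 0.863 and 0.530 (WT MII). KO values by stage were 1.54 and 1.39, 2.04 and 1.56, and 1.40 and 0.995. The KO libraries were the higher at GV and at MII, without overlap, and none of these differences was called (0.62 ± 0.27 at GV, adjusted p = 0.306 by edgeR). *Pdk1* (ENSMUSG00000006494, chromosome 2, 71873224 to 71903858, plus strand) rested on 89 to 310 counts per library. It was at 0.261 and 0.796 (WT GV), 0.594 and 0.594 (WT GVBD), and 0.495 and 0.351 (WT MII), and in KO at 0.554 and 0.426, 0.944 and 0.802, and 0.594 and 0.550. No change of *Pdk1* between stages or genotypes had an unadjusted p under 0.05.

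*Pdk2* (ENSMUSG00000038967, chromosome 11, 95026258 to 95041354, minus strand) had the lowest counts. WT counts were 19 and 73 (GV), 63 and 57 (GVBD), and 87 and 107 (MII). KO counts were 65 and 60 (GV), 0 and 68 (GVBD), and 6 and 8 (MII). Both KO MII libraries lay below every WT library, and the other 2 low values were in KO GVBD replicate 1 and WT GV replicate 1. KO against WT at MII was −3.35 ± 1.3 (edgeR, unadjusted p = 0.0103, adjusted p = 0.306). The change from GV to MII was −0.05 ± 0.82 in WT and −4.02 ± 1.11 in KO (adjusted p = 0.976 and 0.0674), and the interaction was −3.98 ± 1.32 (unadjusted p = 0.011, adjusted p = 0.601). The 4 libraries with 0 to 19 *Pdk2* counts were the same 4 with 0 to 4 *Tnnt2* counts. The summed level of all 10 muscle markers overlapped, at 108 to 987 CPM in these 4 libraries and 176 to 1018 in the rest. Whether *Tnnt2* or the other muscle markers had a part in this was not tested.

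The rest of the pathway was read from a list of 27 other genes of pyruvate and lactate handling. By edgeR, KO against WT called 0 of 26 tested at GV (0.0977% of all genes), 0 of 26 at GVBD (2.54%), 1 of 25 at MII (0.803%) and 2 of 27 over all stages (1.26%). DESeq2 called 4, 0, 1 (a gene other than *Pdk4*) and 3, and edgeR's unadjusted p was under 0.05 for 8 and 4 at GV and GVBD. *Ldhc*, the lactate dehydrogenase subunit of the germ line, was called higher in KO over all stages (2.13 ± 0.41, adjusted p = 0.0254). Its WT counts were 575 and 525 (GV), 657 and 1041 (GVBD), and 77 and 56 (MII), against 1776 and 1754, 2425 and 1167, then 549 and 183 for KO. All KO libraries lay above the WT libraries of their stage. *Pdp1*, the phosphatase subunit that reactivates pyruvate dehydrogenase, was also called higher (1.16 ± 0.25, adjusted p = 0.0396). Its level was 1.79 and 1.79 (WT GV), 3.57 and 1.71 (WT GVBD), and 2.30 and 1.45 (WT MII), against 3.88 and 3.26, 6.11 and 4.91, and 5.91 and 4.11 in KO. Again no KO library overlapped the WT libraries of its stage. Of 16622 genes tested at all 3 stages, 6.73% had both KO libraries higher at each. *Ldhc* and *Pdp1* were named because they were called between genotypes, so their lack of overlap is not independent of that choice. With TMM scaling *Ldhc* was still called (1.77), while *Pdp1* at 0.94 was under the fold minimum. *Ldhc* was lost when 1 of 6 libraries in turn was left out and *Pdp1* when 1 of 10 was.

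*Pdk4*, a kinase induced in muscle and by fasting, was called lower in KO at MII (−4.84 ± 1.15, adjusted p = 0.00645). At MII its counts were 540 and 567 for WT against 25 and 0 for KO. Earlier counts were 69 and 270 (WT GV), 262 and 368 (KO GV), 121 and 518 (WT GVBD), and 0 and 666 (KO GVBD). Its 4 lowest libraries were those 4 low for *Tnnt2*, *Ldha* and *Pdk2*. DESeq2 did not call it (adjusted p = 0.597), nor was it called with TMM scaling (−5.43) or without either WT MII library or KO MII replicate 2. The summed level of the 10 muscle markers did not separate these 4 libraries from the rest. The link of *Pdk4* to *Tnnt2* was not tested.

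From GV to MII in WT, 6 of 26 tested genes of this list fell and none rose, beside 30.5% of all genes called lower. *Ldhc* (−4.02 ± 0.61) and *Lipt2*, a lipoyl transferase (−2.06 ± 0.61), had the lowest values, and *Me2*, mitochondrial malic enzyme (−1.84 ± 0.51), and *Bsg*, the chaperone of lactate transporters (−1.53 ± 0.52), the highest of those called. In KO edgeR called 0 of 25, beside 3.28% of all genes, with 7 of the list at an unadjusted p under 0.05, and DESeq2 called 6. The median of the list was −0.97 in WT and −1.26 in KO, beside −1.06 and −1.17 for all genes.

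Of the 20 glycolysis genes, 9 of 17 tested fell from GV to MII in WT, at a median of −1.48. Of all genes 30.5% were called lower there, at a median of −1.06. *Slc2a3*, a glucose transporter (−4.63 ± 0.98), and *Tpi1* (−3.28 ± 0.55) fell the most, and *Eno1* (−1.88 ± 0.51) and *Pgk1* (−1.39 ± 0.50) the least of those called. The fall of *Slc2a3* rested on few counts, 38 and 136 in WT GV and 7 and 8 in WT MII. In these libraries the blood markers summed to 16.5 and 5553 CPM (WT GV) and 9.16 and 38.6 CPM (WT MII), and their part in the fall was not tested. In KO edgeR called 1 of 19, beside 3.28% of all genes. It was *Aldoa* (−3.80 ± 0.88, adjusted p = 0.0478), and the median of the list was −2.52, beside −1.17 for all genes. DESeq2 called 9 lower in each genotype, and 11 in each had an unadjusted edgeR p under 0.05. Several of these genes have processed copies, which unique mapping leaves out. *Slc2a3* was the one gene of this list called between genotypes by edgeR, at GVBD, beside 2.54% of all genes (−3.65 ± 0.75, adjusted p = 0.00927). There it received 356 and 201 counts in WT and 24 and 12 in KO. It was not called with TMM scaling (−3.87) or when either WT GVBD library was left out. The blood markers summed to 3241 and 2960 CPM in the same WT GVBD libraries and to 4.58 and 9.0 CPM in KO GVBD, and their part in this difference was not tested.

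Of the 16 TCA cycle genes, edgeR called 7 lower from GV to MII in WT and 2 in KO, at medians of −1.21 and −2.35. Of all genes 30.5% were called lower in WT and 3.28% called in KO, at medians of −1.06 and −1.17. DESeq2 called 9 of the 16 lower in each genotype, and 10 in WT and 9 in KO had an unadjusted edgeR p under 0.05. In WT *Sdhb* (−3.95 ± 0.56) and *Sdhd* (−3.58 ± 0.53), subunits of succinate dehydrogenase, had the lowest values and *Fh1*, fumarase (−2.07 ± 0.52), and *Idh3b* (−1.75 ± 0.60) the highest of those called. *Sdhd* counts went from 6357 and 3308 (WT GV) to 787 and 819 (WT MII). In KO *Sdhd* (−3.50 ± 0.83, adjusted p = 0.0496) and *Mdh2*, malate dehydrogenase (−3.27 ± 0.76, adjusted p = 0.048), were called. No TCA cycle gene was called between genotypes by edgeR at GV, GVBD or MII, beside 0.0977%, 2.54% and 0.803% of all genes. At these stages 7, 2 and 0 of the 16 had an unadjusted edgeR p under 0.05, and DESeq2 called 2, 0 and 0. The medians of KO against WT were 0.44, 0.60 and 0.09, beside 0.36, 0.23 and 0.30 for all genes.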

How the data were processed

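Per the labels and the submitters' processing notes, the tools named by the authors were cutadapt 1.9, HISAT2 2.0.4 and StringTie 1.3.4d with the mm10 build, and they deposited raw counts per gene for 56691 genes and 92 ERCC RNAs in 12 libraries. The methods describe SMART-seq with ERCC RNA, whereas the label protocol describes a bulk poly(A) preparation. Counts include PCR duplicates. Symbols and positions came from GENCODE M21 (GRCm38), which matched 52073 identifiers (91.9%).

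Counts were tested with edgeR 4.0.16 (R 4.3.3, quasi-likelihood, filterByExpr), with library sizes proportional to summed ERCC counts, on the libraries of each comparison. Standard errors were derived from the fold change and F. Adjusted p-values are Benjamini-Hochberg over all tested genes, with thresholds of 0.05 and an absolute log2 fold change of 1. Alternatives were TMM and median-of-ratios scaling, no filter, DESeq2 1.42.0, all 12 libraries in one model, leaving out single libraries and a replicate block. The code was tested on simulated data. Likeness used a pseudocount of 0.5 and a mean of at least 50 counts, and passed over genes without a symbol or with a Gm, Rik or accession-like name. All members were named, with pathway genes called between genotypes, the 2 lowest and 2 highest called changes from GV to MII of each list and genotype, and the 3 genes most like *Ldhb*. Members and lists were chosen with earlier results of these data known.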

Additional observations from a re-analysis of the deposited data

Results flagged for a closer look

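For *Ldhb* both KO libraries lay below both WT libraries at GV and MII and above them at GVBD. The difference between the genotype effects at GV and GVBD was 1.52 on the log2 scale, and that between GVBD and MII was −1.81. By edgeR's interaction test the adjusted p-values were 0.391 and 0.63, so neither passed, while DESeq2 called the first (adjusted p = 0.0423). The stage comparison from GVBD to MII was added after the data were seen.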

How the results depend on the processing

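The count of the 10 genes called changed as follows. From GV to MII in WT it went from 4 to 1 with TMM and with median-of-ratios scaling, to 3 by DESeq2, to 2 with all 12 libraries in one model and to 0 to 3 when a library was left out. In KO it went from 0 to 3 without the filter, 4 by DESeq2, 2 with all 12 libraries and 0 to 6 without a library. From GV to GVBD it went from 0 to 1 without the filter in both genotypes, to 1 by DESeq2 in WT, and to 0 to 2 without a library in KO. From GVBD to MII it went in WT from 4 to 3 with TMM scaling, median-of-ratios scaling, no filter and all 12 libraries and to 0 to 2 without a library, and in KO from 0 to 2 by DESeq2 and with all 12 libraries and 0 to 3 without a library. KO against WT went from 0 to 0 to 1 at GV without a library, and at GVBD to 1 without the filter, 1 by DESeq2 and 0 to 2 without a library. The interaction from GV to GVBD went from 0 to 1 without the filter and by DESeq2.

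Same-numbered deviations correlated at −0.22 to 0.06 over 13273 genes, so replicate numbers gave little sign of pairing. With 2 libraries per group this cannot show whether same-numbered libraries were collected together, which the labels do not state. With a replicate block the count was 3 from GV to MII in each genotype, 1 from GV to GVBD in WT and 1 from GVBD to MII in KO. With the crossed pairing, chosen after seeing the data, it was 2 from GV to MII in WT, 1 from GV to GVBD in both genotypes, 0 from GVBD to MII in WT and 1 for KO against WT at GVBD.

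Of 129 member values, 65 turned sign under at least 1 alternative, and of the 8 called values 1 did, that of *Ldha* from GV to MII in WT (−2.35 to 0.34 without a library). From GV to MII *Ldhb* was 0.75 (TMM), 0.86 (median of ratios) and −0.43 to 0.15 without a library in WT and 0.78 and 0.81 by the 2 scalings in KO. From GVBD to MII in KO it was 0.79 and 0.83 by these scalings. KO against WT over all stages it was −0.19 and −0.21 by them and −0.20 to 0.19 without a library, and its interaction from GV to MII was −0.55 to 0.033 without a library. The cause was not tested. DESeq2 gave *Pdk2* no adjusted p at GV. Genes with few counts, such as *Pdk2*, were limited by depth.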
